A study of Mus musculus with 14 samples.

Results

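The 10 genes Esm1, Aplnr, Cdh5, Pecam1, Kdr, Flt1, Tek, Tie1, Plvap and Cldn5, which mark the endothelial cells lining blood vessels, were followed through newborn mouse eyes lacking a chromatin remodelling enzyme. They were chosen by name, with earlier results of these data known. Every probe set annotated to 1 of them alone was kept, giving 14 probe sets for 10 genes among 20380 probe sets for 12393 genes. Snf2h (Smarca5) and Brg1 (Smarca4) are ATPases that move or evict nucleosomes in different remodelling complexes. In the Snf2h experiment, 4 arrays of whole enucleated eyes from newborn C57BL/6 pups with a lens-conditional Snf2h knockout were set against 4 arrays from wildtype pups. In the Brg1 experiment, 3 arrays of eyeballs from Brg1 cKO pups on a mixed background were set against 3 wildtype arrays of that background, all at postnatal day 1. The lens, and not the vessel wall, is the labelled site of the Snf2h deletion. The cells in which Brg1 was deleted and the Cre driver are not given in the sources used here. Each array read 50 ng of amplified total RNA from all tissues of the eye together, so fewer endothelial cells and less RNA per endothelial cell cannot be told apart. The labels do not say which arrays come from separate or pooled animals, and the p-values measure only the spread between these arrays.

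Vessels of the newborn eye include the transient hyaloid vessels around the lens, the choroid behind the retina and the retinal network that begins to spread after birth. VEGF released by the surrounding tissue acts on the tyrosine kinase receptor Kdr (VEGFR2), while Flt1 (VEGFR1) binds VEGF tightly and can act as a decoy. The angiopoietin receptor Tek (Tie2) and its partner Tie1 govern vessel stability, and the apelin receptor Aplnr and the secreted proteoglycan Esm1 are prominent in sprouting endothelium. Cdh5 (VE-cadherin) and Pecam1 hold endothelial cells to each other, Cldn5 forms the tight junctions of barrier vessels, and Plvap forms the diaphragms of fenestrated, leaky vessels.

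The promoter letters of 3 members, Esm1, Tie1 and Cldn5, are shown because their runs lay wholly outside the annotated gene. RefSeq sequences on GRCm38.p6 were held here for 6 of the 10 members. Each printed run is the 250 bases before the annotated gene start, read 5′ to 3′ on the gene's strand. Esm1 is at chr13:113209409-113209658 on the plus strand, Tie1 at chr4:118489850-118490099 on the minus strand and Cldn5 at chr16:18776597-18776846 on the plus strand. Capitals mark the letters AGGAAG, 1 form of ETS factor sites, or their reverse complement CTTCCT. Shorter or other forms of ETS sites were not searched.
Esm1: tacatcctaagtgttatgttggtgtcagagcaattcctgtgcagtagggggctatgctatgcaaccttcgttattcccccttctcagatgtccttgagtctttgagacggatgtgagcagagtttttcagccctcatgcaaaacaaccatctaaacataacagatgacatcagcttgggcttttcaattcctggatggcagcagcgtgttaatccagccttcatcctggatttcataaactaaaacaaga
Tie1: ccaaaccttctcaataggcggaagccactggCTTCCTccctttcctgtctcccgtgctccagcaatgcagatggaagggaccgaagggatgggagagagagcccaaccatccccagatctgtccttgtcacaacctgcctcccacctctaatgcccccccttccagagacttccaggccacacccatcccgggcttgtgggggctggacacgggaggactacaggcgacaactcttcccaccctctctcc
Cldn5: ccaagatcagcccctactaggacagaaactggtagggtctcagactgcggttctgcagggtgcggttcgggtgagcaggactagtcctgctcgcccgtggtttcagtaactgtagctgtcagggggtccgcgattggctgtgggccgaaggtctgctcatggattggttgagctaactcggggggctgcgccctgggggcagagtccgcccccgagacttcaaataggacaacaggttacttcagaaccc
The Tie1 run held 1 match, and the Esm1 and Cldn5 runs held 0. Among all 6 member promoters of this length, 2 held these letters on either strand, those of Tie1 and Flt1, against 29.5% of 32851 promoters. The runs of Kdr, Flt1 and Tek lay partly or wholly inside the annotated gene and are not printed. The letters AACAAT, a core of SOX factor sites, were in 1 of 6 member promoters, that of Tek, against 9.42% of all. The letters AGATAA were in 0 of 6 against 9.99% of all, and are a core of sites for GATA factors. A match is a run of letters and not a measured binding site.

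No endothelial probe set passed an adjusted p under 0.05 in either knockout. In the Snf2h experiment 0 of 14 passed, where 0% of all probe sets did, and in the Brg1 experiment 0 of 14 passed, where 0.623% of all probe sets did. In simulated data these fits called 56% of changes of 1 log2 unit in the Snf2h and 16% in the Brg1 experiment. A probe set without a call may thus still have changed. The log2 changes of the 14 probe sets lay between -0.46 and 0.37 in the Snf2h knockout and between -0.17 and 1.24 in the Brg1 knockout. With Snf2h deleted, 9 of 14 changes were below 0, against 53.8% of all probe sets, and the median over the 10 genes was -0.32, against -0.05 over all genes. In the Brg1 knockout 11 of 14 were above 0, against 49.1% of all probe sets, and the median over the 10 genes was 0.51, against 0.02 over all genes. That median was 0.18 without Brg1 cKO replicate 2, 0.79 without replicate 1 and 0.15 with dim probe sets left out, which drops dim members such as Esm1. The Snf2h median was -0.17 without wildtype replicate 1, -0.11 with an offset of 32 added to the intensities and -0.12 with the Gapdh 3′ minus 5′ difference, a sign of RNA quality, as a covariate. At an unadjusted p under 0.05 there was 1 endothelial probe set in the Snf2h experiment, Flt1 1419300_at, against 17.7% of all probe sets, and 2 in the Brg1 experiment, of Esm1 and Aplnr, against 8.13%.

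**Figure D1:**
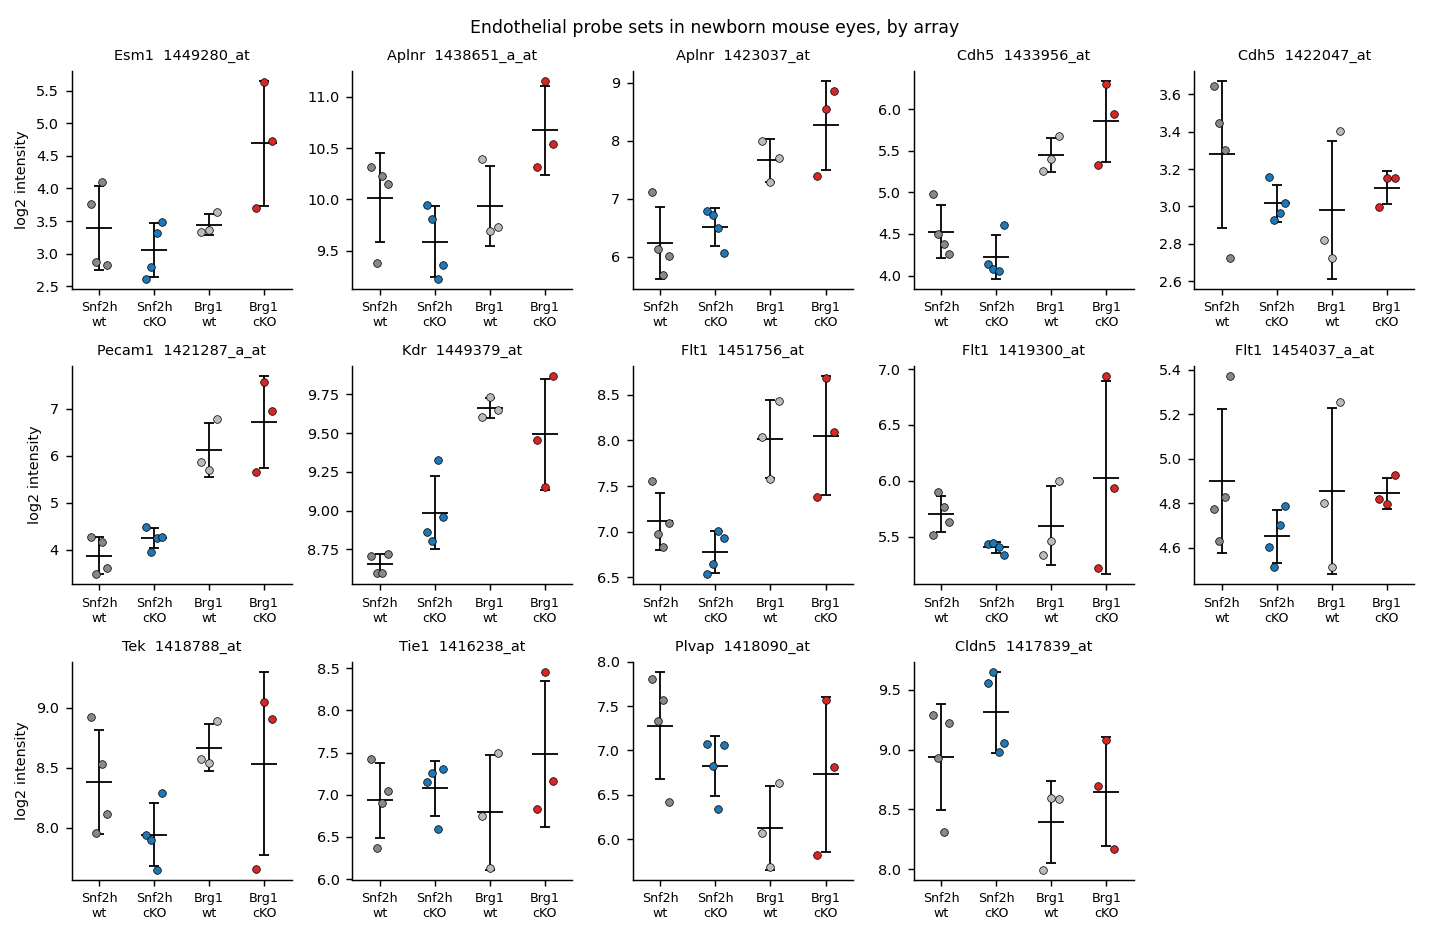
Log2 intensity of each of the 14 endothelial probe sets on every array, with 1 point per array and the 4 groups side by side. The range of the knockout points overlaps that of the wildtype points of the same experiment for most probe sets. Esm1 on the Brg1 cKO arrays, between 3.71 and 5.63, lies above its wildtype arrays.

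Among the VEGF receptors, Kdr had the most even levels of all members in wildtype eyes. Its log2 intensity was 8.70, 8.60, 8.60 and 8.72 in the Snf2h wildtype arrays and 8.86, 8.80, 9.33 and 8.96 in the Snf2h cKO arrays. Each knockout array lay above each wildtype array, although by as little as the gap between 8.72 and 8.80. The change was 0.33 ± 0.15 (limma standard error), with an adjusted p of 0.283. Of all probe sets, 6.52% were likewise higher with no overlap between the Snf2h groups. In the Brg1 experiment Kdr was at 9.61, 9.73 and 9.65 in wildtype and at 9.46, 9.15 and 9.87 in knockout arrays. These groups overlapped, with a change of -0.17 ± 0.21 and an adjusted p of 0.893.

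Flt1 was read by 3 probe sets. The brightest, 1451756_at, was at 7.55, 6.98, 6.83 and 7.10 in Snf2h wildtype arrays and at 6.53, 6.64, 7.01 and 6.93 in Snf2h cKO arrays. The groups overlapped, and the change was -0.34 ± 0.19 with an adjusted p of 0.377. The probe set 1419300_at was at 5.52, 5.90, 5.76 and 5.63 in wildtype and at 5.43, 5.44, 5.41 and 5.33 in knockout arrays. Here each knockout array lay below each wildtype array, as did 4.17% of all probe sets, but the change of -0.30 ± 0.13 had an adjusted p of 0.277. The third, 1454037_a_at, differed by -0.25 ± 0.18, so all 3 Flt1 probe sets had lower means in the Snf2h knockout while Kdr had a higher one. In the Brg1 experiment their changes were 0.04 ± 0.36, 0.43 ± 0.42 and -0.0095 ± 0.22, each smaller than or near its own standard error. The Brg1 cKO replicate 2 read 8.69 for 1451756_at and 6.94 for 1419300_at, above the other 5 arrays of the experiment in both.

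Of the angiopoietin receptors, Tek was at 8.92, 7.96, 8.53 and 8.11 in Snf2h wildtype arrays and at 7.94, 7.89, 7.65 and 8.29 in knockout arrays. The lower knockout mean, -0.44 ± 0.23, did not pass (adjusted p = 0.345), and replicate 4 of the knockout lay among the wildtype values. In the Brg1 experiment Tek was at 8.57, 8.54 and 8.89 in wildtype and at 7.65, 9.05 and 8.90 in knockout arrays. The knockout arrays thus lay on both sides of the wildtype arrays, and the change was -0.13 ± 0.37 (adjusted p = 0.956). Tie1, the orphan partner of Tek, had changes of 0.14 ± 0.24 in the Snf2h knockout and 0.69 ± 0.49 in the Brg1 knockout. Its Brg1 cKO values of 6.83, 8.46 and 7.16 overlapped the wildtype values of 6.75, 6.13 and 7.50, and the adjusted p was 0.790.

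Esm1 and Aplnr were the members with an unadjusted p under 0.05 in the Brg1 knockout, and neither passed after adjustment. Esm1 was dim, with log2 values of 3.33, 3.37 and 3.64 in Brg1 wildtype arrays and 3.71, 5.63 and 4.73 in Brg1 cKO arrays. Each knockout array lay above each wildtype array, replicate 1 by little and replicate 2 by most. The change was 1.24 ± 0.44, a 2.37-fold higher mean with an interval of 0.21 to 2.27 on the log2 scale, an unadjusted p of 0.0240 and an adjusted p of 0.502. Of all probe sets, 7.23% were higher with no overlap between the Brg1 groups. Without replicate 2 of the knockout the change was 0.77, and without replicate 1 it was 1.73. With an offset of 32 added to the intensities, which weighs down dim probe sets, it was 0.48. In the Snf2h experiment Esm1 was at 3.76, 2.87, 4.10 and 2.83 in wildtype and at 2.62, 2.80, 3.32 and 3.49 in knockout arrays. These groups overlapped, with a change of -0.33 ± 0.32 and an adjusted p of 0.603.

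Aplnr was read by 2 probe sets. The brighter, 1438651_a_at, was at 10.39, 9.69 and 9.73 in Brg1 wildtype arrays and at 10.32, 11.16 and 10.54 in Brg1 cKO arrays. The highest wildtype array overlapped the lowest knockout array, and the change was 0.74 ± 0.29 with an unadjusted p of 0.0368 and an adjusted p of 0.569. The second probe set, 1423037_at, differed by 0.61 ± 0.39 (adjusted p = 0.774). In the Snf2h experiment the brighter probe set was at 10.31, 9.38, 10.23 and 10.15 in wildtype and at 9.94, 9.81, 9.23 and 9.36 in knockout arrays. Its change was -0.43 ± 0.24 and that of the second probe set 0.28 ± 0.30, so the Aplnr probe sets had opposite signs there, and neither passed.

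The difference between the knockouts was tested directly as the Brg1 change minus the Snf2h change. It passed for 0 of 14 endothelial probe sets, where 0.687% of all probe sets passed. In simulated data this fit called 14% of differences of 1 log2 unit. Esm1 differed by 1.58 ± 0.57 (unadjusted p = 0.0157, adjusted p = 0.269) and Aplnr 1438651_a_at by 1.17 ± 0.40 (unadjusted p = 0.0109, adjusted p = 0.235). These 2 were the members with an unadjusted p under 0.05, a level that 12.6% of all probe sets reached.

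**Figure D2:**
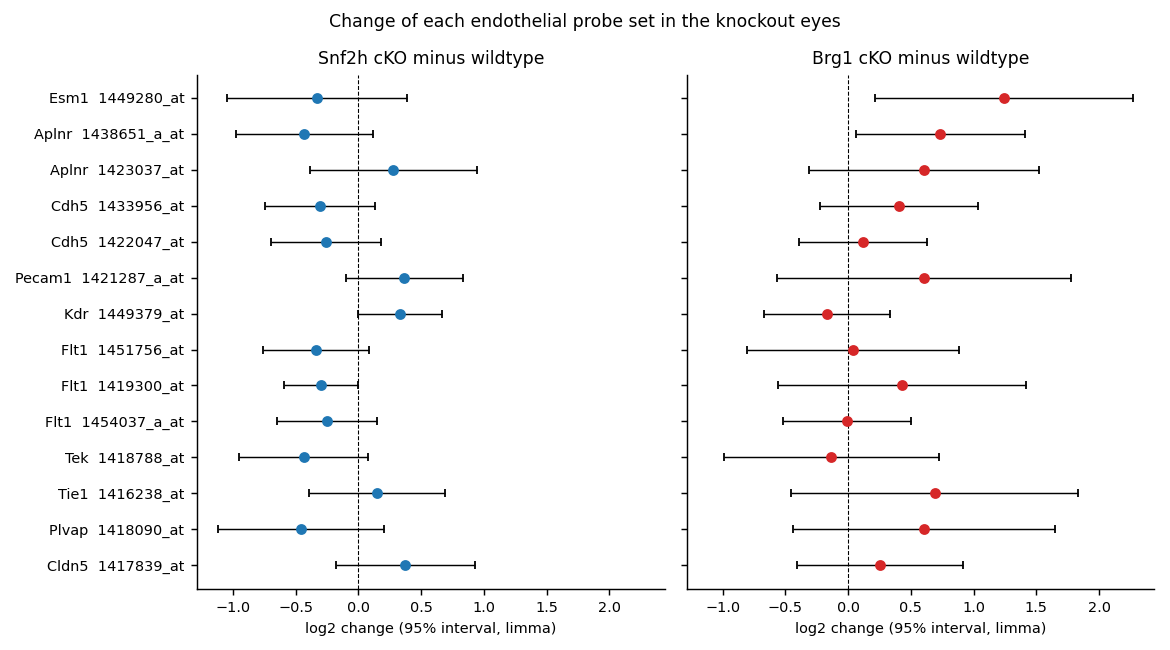
Log2 change of each endothelial probe set, knockout minus the wildtype of its own experiment, with the 95% interval from limma. The Brg1 intervals are the wider ones for most probe sets, and those of Esm1 (0.21 to 2.27) and Aplnr 1438651_a_at (0.06 to 1.41) lie above 0 before adjustment.

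Among the junction genes, Cdh5 1433956_at was at 5.26, 5.41 and 5.67 in Brg1 wildtype arrays and at 5.33, 6.30 and 5.94 in knockout arrays. Of the knockout arrays, 2 lay above the wildtype range and 1 within it, and the change was 0.41 ± 0.27 (adjusted p = 0.781). In the Snf2h experiment it was at 4.98, 4.50, 4.38 and 4.26 in wildtype and at 4.14, 4.08, 4.06 and 4.61 in knockout arrays. The mean was lower by a log2 change of -0.31 ± 0.20 (adjusted p = 0.434), with 3 knockout arrays below the wildtype range and replicate 4 inside it. The dimmer Cdh5 probe set, 1422047_at, differed by -0.26 ± 0.20 in the Snf2h and 0.12 ± 0.22 in the Brg1 knockout.

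Pecam1 was at 5.87, 5.70 and 6.77 in Brg1 wildtype arrays and at 5.65, 7.56 and 6.94 in Brg1 cKO arrays. The knockout arrays spanned the wildtype range, with a change of 0.60 ± 0.50 and an adjusted p of 0.818. With 1 array left out, the Brg1 change ran from 0.18 to 1.14 for Pecam1, 0.20 to 1.04 for Tie1, 0.19 to 1.06 for Plvap and 0.04 to 0.49 for Cldn5, with the lowest value of each without knockout replicate 2. In the Snf2h experiment Pecam1 was at 4.26, 3.48, 4.15 and 3.60 in wildtype and at 4.48, 3.96, 4.26 and 4.26 in knockout arrays. These groups overlapped, and the change of 0.37 ± 0.21 did not pass (adjusted p = 0.383). Both junction genes were dim in Snf2h wildtype arrays. The means of Pecam1 and Cdh5 1433956_at lay at the 20.5th and 27.0th percentile of all probe sets.

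The barrier gene Cldn5 was at 9.29, 8.93, 8.31 and 9.22 in Snf2h wildtype and at 9.55, 9.65, 8.98 and 9.06 in Snf2h cKO arrays. The change of 0.37 ± 0.25 had an adjusted p of 0.448, and in the Brg1 experiment the change was 0.25 ± 0.28 (adjusted p = 0.874). The fenestral gene Plvap was at 7.81, 7.33, 7.57 and 6.42 in Snf2h wildtype and at 7.07, 6.83, 6.34 and 7.06 in Snf2h cKO arrays. Replicate 4 of the wildtype lay among the knockout arrays, and the change was -0.46 ± 0.30 (adjusted p = 0.438). In the Brg1 experiment Plvap differed by 0.60 ± 0.45 (adjusted p = 0.798), with knockout arrays at 5.82, 7.56 and 6.81 around wildtype arrays at 6.06, 5.69 and 6.63.

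Within a group, most members varied together from array to array. In the Brg1 cKO group, replicate 2 had the highest value for 11 of 14 endothelial probe sets and replicate 1 the lowest for 11. Over all probe sets, replicate 2 was the highest of its group for 33.8%. Against their own wildtype mean, the median over the 14 probe sets was -0.16 in Brg1 cKO replicate 1, 0.87 in replicate 2 and 0.35 in replicate 3, so the higher Brg1 medians came from 2 of 3 arrays. Replicate 3 of the Brg1 wildtype arrays was highest for 10 of 14, against 36.8% of all probe sets, and replicate 1 of the Snf2h wildtype arrays for 10 of 14, against 20.9%. The 4 Snf2h cKO arrays had medians of -0.17, -0.31, -0.25 and -0.10.

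**Figure D3:**
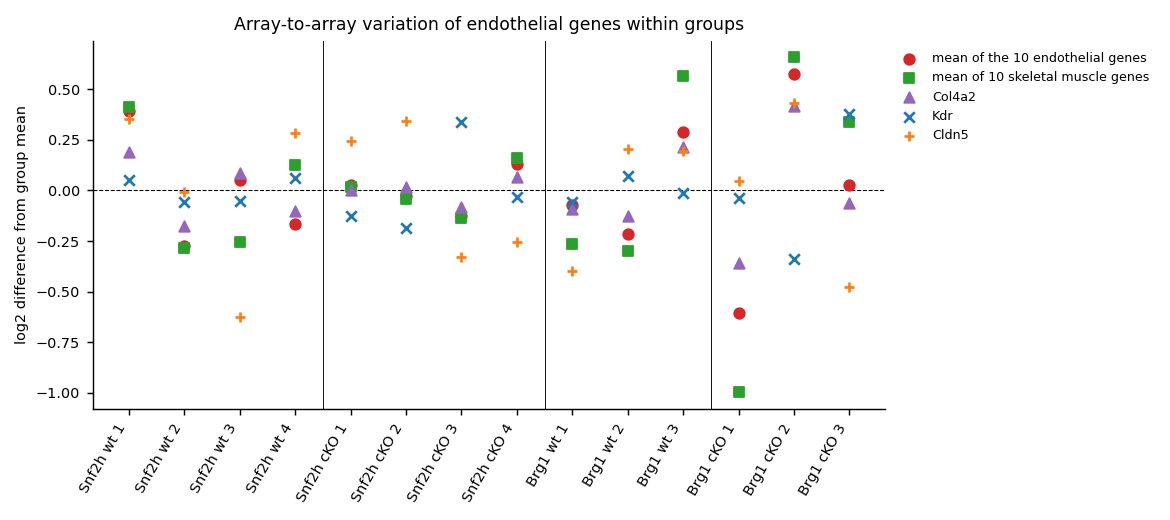
Difference from the mean of its own group, on the log2 scale, for the mean of the 10 endothelial genes, the mean of 10 skeletal muscle genes, Col4a2, Kdr and Cldn5 on each of the 14 arrays. The endothelial mean is at -0.60 in Brg1 cKO replicate 1 and 0.58 in replicate 2, where Kdr is at -0.34.

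With each group's mean subtracted, every member was compared over the 14 arrays with the mean of the other 9, as a description. Pecam1 had a Pearson r of 0.911, Tek 0.904, Cdh5 0.846, Tie1 0.839, Plvap 0.826, Flt1 0.817 and Esm1 0.740. Within the 8 Snf2h arrays alone Tek was at 0.961, Pecam1 0.739, Tie1 0.734 and Cdh5 0.709, but Plvap was at 0.537, Esm1 at 0.423 and Flt1 at 0.415. Within the 6 Brg1 arrays these 7 members were between 0.878 and 0.993. Over all arrays Aplnr followed less closely at 0.466, Cldn5 was at 0.119 and Kdr at -0.340. Without Brg1 cKO replicate 2 the order of the closest members was similar, with Tek at 0.912 and Pecam1 at 0.882, while Kdr moved to -0.045 and Cldn5 to -0.088. The group mean subtracted for these values still included that array. Over the 45 pairs of members the median r was 0.497, from -0.518 for Kdr with Tie1 to 0.877 for Cdh5 with Tek. Probe sets of 1 gene did not always move together either. The second Aplnr probe set had an r of 0.482 with the brighter one, the second Cdh5 probe set 0.583, and the other Flt1 probe sets 0.684 and 0.346.

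The genes whose array-to-array pattern was most like the mean of the 10 members were not all vascular. Among 12383 other genes the highest r over the 14 arrays belonged to Col4a2 at 0.978, Myh8 at 0.975, Srpk3 at 0.970, Sox7 at 0.955, Col4a1 at 0.954 and Plek at 0.950. Col4a1 and Col4a2 encode the collagen IV chains of basement membranes, Sox7 is an endothelial transcription factor and Plek is abundant in platelets and leukocytes. Myh8, the perinatal myosin heavy chain, and Srpk3, a muscle kinase, are skeletal muscle genes. These 6 are the extremes of a ranking. Without Brg1 cKO replicate 2, with group means taken anew, they had values between 0.918 and 0.968. Myh8 was at 9.84, 11.59 and 10.74 in the Brg1 cKO arrays, low in replicate 1 and high in replicate 2 as most members were.

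A list of 10 skeletal muscle markers, added after this ranking was seen, was read beside the endothelial genes. Its mean and the mean of the 10 members had a Pearson r of 0.903 and a Spearman rho of 0.859 over the 14 arrays after subtraction of group means. Without Brg1 cKO replicates 1 and 2, the arrays farthest out on the muscle scale, and the third array then alone in its group, r was 0.813 and rho 0.773 over 11 arrays. Within the 8 Snf2h arrays r was 0.737 and rho 0.619, and within the 6 Brg1 arrays r was 0.954 and rho 1. Among single members Pecam1 followed the muscle mean with an r of 0.886, Cldn5 with 0.291 and Kdr with -0.061. The summed muscle intensity ran from 18096 to 28691 in Brg1 wildtype and from 12861 to 32897 in Brg1 cKO arrays, and from 14570 to 22208 and 19308 to 24381 in the Snf2h groups. The summed retina intensity had the opposite order to muscle in the Brg1 cKO arrays, at 9997, 4719 and 7358 in replicates 1, 2 and 3. The part of muscle and retina in the endothelial values was not tested.

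**Figure D4:**
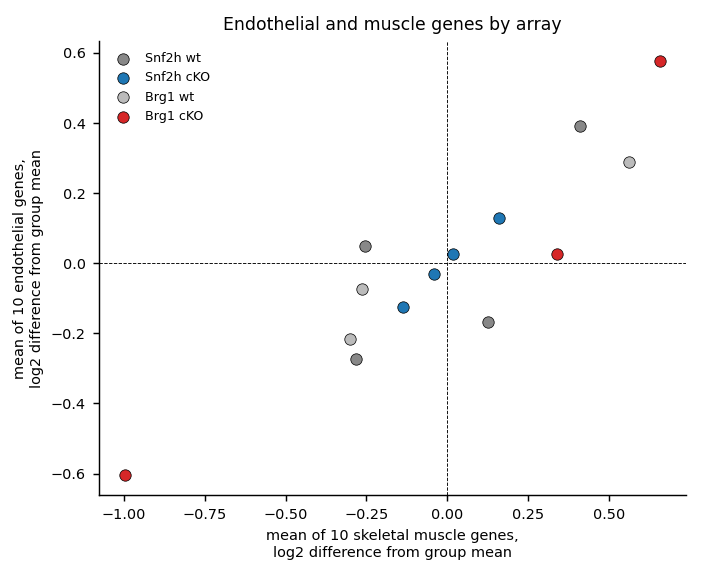
Mean deviation of the 10 endothelial genes from their group means against that of 10 skeletal muscle genes, both on the log2 scale, with 1 point per array. Brg1 cKO replicate 1 is at the lower left (-0.995 for muscle, -0.60 for the endothelial genes) and replicate 2 at the upper right (0.66 and 0.58).

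Other properties of the arrays also stood apart. The labels give whole eyes, and lens genes (Mip, Bfsp1, Crygs) and retinal genes (Crx, Nrl, Otx2, Pax6) were bright in wildtype arrays, with group means between 9.17 and 12.85. None of 3 Smarca5 probe sets passed in the Snf2h experiment and none of 2 Smarca4 probe sets in the Brg1 experiment. Whether they lie in the deleted exons is not given in the sources used here, so they do not check the labels. The lens gene Crygs was at 12.44 to 12.75 in Brg1 wildtype and at 7.004 to 11.23 in Brg1 cKO arrays. The Gapdh 3′ minus 5′ difference, a sign of RNA quality, was 1.09 to 4.47 in Snf2h wildtype and 0.77 to 0.99 in Snf2h cKO arrays, so that it separates the groups of that experiment. Brg1 cKO replicate 1, the array with the lowest endothelial values of its group, had Xist at 3.71 while the other 5 Brg1 arrays were between 11.01 and 11.77. Snf2h cKO replicates 1 and 2 were near-identical, with an SD of their log2 difference of 0.217 against 0.419 to 0.723 for the other 17 pairs within groups. The 6 measured skin markers included the basal-layer keratins Krt5 and Krt14. Their summed intensity ran from 1882 to 8612 in Snf2h wildtype and from 1284 to 2084 in Snf2h cKO arrays. The part of these in the endothelial values was not tested.

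Of the blood cell markers, only 2 neutrophil genes passed in the Brg1 knockout. These genes, S100a8 and S100a9, rose by 5.01 and 4.48 on the log2 scale (adjusted p = 0.0138 and 0.00730), with 8 neutrophil markers measured. Without Brg1 wildtype replicate 1 their adjusted p-values were 0.0641 and 0.0544, and S100a8 was also at 0.0786 without wildtype replicate 2 and at 0.0685 without replicate 3. With the offset of 32 the adjusted p-values were 0.137 and 0.109, and with the replicate number as a block S100a8 was at 0.0648. The summed neutrophil intensity ran from 301 to 645 in Brg1 wildtype and from 4179 to 13322 in Brg1 cKO arrays. Most of the knockout sum came from S100a8 and S100a9, at log2 values of 10.08 to 12.01 and 11.50 to 13.01 there. The sum thus largely repeats these 2 genes. All 12 macrophage markers had changes above 0 with 0 calls, and their summed intensity ran from 1781 to 2507 and from 2544 to 5067. The 6 red blood cell markers had 2 changes above 0 and 4 below with 0 calls, and their summed intensity of 159 to 279 in wildtype and 117 to 370 in knockout arrays overlapped. Pecam1 and Tek are also made by some blood cells, and the part of these cells in the endothelial values was not tested.

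The VEGF ligands and co-receptors had no calls among 8 measured genes in either knockout. Their median change was 0.27 in the Brg1 knockout, with 8 of 8 above 0, and 0.00085 in the Snf2h knockout. Vegfd, a ligand of Flt4, had a change of -1.13 in the Snf2h knockout (adjusted p = 0.222) and Flt4, the receptor of lymphatic vessels, -0.70 (adjusted p = 0.228). In the Brg1 knockout Flt4 had a change of 0.49 and the co-receptor Nrp1 one of 0.41, neither past the test.

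Partners of Tek and Aplnr, taken with adrenomedullin and its receptor, also had no calls among 9 measured genes. Adm, a vasoactive peptide also induced by hypoxia, was the member of this list with the smallest p in the Brg1 knockout. Its mean in 3 wildtype arrays was 5.89 ± 0.49 (SD) and in 3 knockout arrays 7.37 ± 0.54 (SD), a change of 1.48 ± 0.34 with an adjusted p of 0.192. In the Snf2h knockout the receptor Calcrl had a change of -0.72 and Adm one of 0.71, with adjusted p-values of 0.207 and 0.233. Sprouting genes had medians of -0.32 in the Snf2h and 0.46 in the Brg1 knockout with 0 of 9 called in each. Among them were Pdgfb, the signal that recruits pericytes, at 0.42 in the Snf2h knockout, and the Tek ligand Angpt2 at 0.53 in the Brg1 knockout.

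Of 19 other pan-endothelial genes, 18 had changes above 0 in the Brg1 knockout, with a median of 0.43 against 0.02 over all genes, and 0 were called. The mean log2 level of the list was 6.83, 7.97 and 7.30 in the knockout arrays and 6.78, 6.69 and 7.33 in wildtype arrays, so that only replicate 2 of the knockout lay above the wildtype range. In that array the summed muscle, mural, macrophage and neutrophil intensities were also the highest of the experiment. The summed retina intensity, 4719, was the lowest of the experiment there. The part of these tissues and cells in the list's level was not tested. Rasip1, needed for vessel lumens, had a change of 0.91 and the sialomucin Emcn one of 0.84, with adjusted p-values of 0.542 and 0.561. On the Snf2h side 11 of the 19 were below 0, with a median of -0.03 against -0.05 over all genes, and Robo4 had a change of -0.60 (adjusted p = 0.267).

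The 23 endothelial transcription factors had 18 changes below 0 in the Snf2h knockout, a median of -0.23 and 0 calls. The mean log2 level of the list was 6.81, 6.26, 6.67 and 6.19 in wildtype arrays and 6.12 to 6.20 in knockout arrays, so that wildtype replicates 2 and 4 lay near the knockouts. Wildtype replicate 3 had the widest Gapdh difference, 4.47, and the highest summed skin marker intensity, 8612, whose part was not tested. Fli1, an ETS factor of endothelium and blood, averaged 5.51 ± 0.47 (SD) over the 4 wildtype and 4.15 ± 0.40 (SD) over the 4 knockout arrays. Its change of -1.36 ± 0.27 had an adjusted p of 0.0888. It was called with array weights (0.0244) and without Snf2h wildtype replicate 1 (0.0310), settings in which calls over all probe sets rose from 0 to 561 and 184. Over all alternatives the change ran from -1.57 to -0.65, and the adjusted p reached 0.296. Lmo2, a partner of blood and endothelial factors, had a change of -0.71 (adjusted p = 0.146, and 0.0282 with array weights). In the Brg1 knockout 18 of 23 were above 0, with a median of 0.28, Bcl6b at 0.60 and the venous factor Nr2f2 at -0.52, none of them called.

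Norrin signalling and barrier genes, 14 measured, had medians of -0.10 in the Snf2h and -0.12 in the Brg1 knockout with 0 calls in both. Slco1c1, a thyroxine transporter of barrier endothelium, averaged 5.33 ± 0.17 (SD) over the 4 Snf2h wildtype and 6.36 ± 0.27 (SD) over the 4 knockout arrays. Its change of 1.03 ± 0.17 had an adjusted p of 0.0710. It was called in the same 2 settings as Fli1 (0.0299 and 0.0451), while over all alternatives the change ran from 0.66 to 1.14 and the adjusted p reached 0.268. Apcdd1, a Wnt target of barrier endothelium, had a change of -0.67 (adjusted p = 0.182). In the Brg1 knockout the junction scaffold Tjp1 had a change of -0.53 and the Norrin co-receptor Lrp5 one of 0.63, neither past the test.

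Activation genes, which bind passing leukocytes, had 6 of 6 changes above 0 in the Brg1 knockout, a median of 0.55 and 0 calls. Selp (P-selectin), stored in endothelium and platelets, averaged 3.71 ± 0.20 (SD) over the 3 wildtype and 6.27 ± 1.76 (SD) over the 3 knockout arrays. Its change of 2.56 ± 0.77 had an adjusted p of 0.359. It was called without Brg1 cKO replicate 1 (0.0242) and with the Xist level as a covariate (0.0370), while over all alternatives the change ran from 1.42 to 3.59 and the adjusted p reached 0.768. Madcam1 had a change of 0.71 (adjusted p = 0.380). The summed intensity of 5 platelet markers overlapped between the Brg1 groups, at 614 to 760 in wildtype and 559 to 1207 in knockout arrays. Of these 5 markers, 2 had changes above 0 and 3 below, with 0 calls. Ppbp had the smallest p of them, with a change of 2.21 ± 0.55 and an adjusted p of 0.226. Each knockout array lay above each wildtype array for Ppbp. The part of platelets in the Selp values was not tested. In the Snf2h knockout the median of the activation genes was -0.32, with Ackr1 at 0.60 and Sele at -0.56, neither called.

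Cells that ensheathe vessels and lymphatic markers had no calls either. The 13 mural markers had medians of -0.15 in the Snf2h and 0.03 in the Brg1 knockout. Pdgfrb, the pericyte receptor for Pdgfb, had a change of 0.56 (adjusted p = 0.344) and the smooth muscle gene Cnn1 one of -1.03 (adjusted p = 0.284) in the Snf2h knockout. The 4 lymphatic markers had medians of -0.37 and 0.11, and Lyve1, also made by macrophages, had changes of -0.88 in the Snf2h and -0.71 in the Brg1 knockout, neither past the test. The Brg1 value was -0.098 without knockout replicate 1 and -0.024 with the Xist level as a covariate.

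Between the wildtype groups the levels of several members differed, but so did those of many genes. Strain background, experiment and array processing cannot be told apart in this comparison, which was added after the levels were seen. With Brg1 wildtype minus Snf2h wildtype, 6 of 14 endothelial probe sets passed, or 42.9%, against 35.7% of all probe sets, a share near the background. Pecam1 was higher by 2.24 ± 0.31 on the log2 scale (adjusted p = 0.00137), with each Brg1 array, knockouts included, above each Snf2h array. Its only probe set was dim in Snf2h wildtype arrays, with a mean of 3.87, as was Cdh5 1433956_at with a mean of 4.53. Kdr was higher by 1.01 ± 0.14 (adjusted p = 0.00159), Aplnr 1423037_at by 1.42 ± 0.34 (adjusted p = 0.0114), Cdh5 1433956_at by 0.92 ± 0.21 (adjusted p = 0.0109) and Flt1 1451756_at by 0.90 ± 0.25 (adjusted p = 0.0225). Plvap was lower, with a change of -1.15 ± 0.35 and an adjusted p of 0.0320, although its groups overlapped. Without Brg1 wildtype replicate 1 there were 3 of 14 calls, with Aplnr at an adjusted p of 0.0555, Flt1 at 0.0748 and Plvap at 0.101. Flt1 also missed without Snf2h wildtype replicate 2 (0.0510) and Brg1 wildtype replicate 3 (0.0903). With the Gapdh difference as a covariate Aplnr (0.0608), Flt1 (0.101) and Plvap (0.135) lost their calls, and with the Xist level Flt1 (0.0718) and Plvap (0.304) did. Plvap was at 0.0502 with the offset of 32. It also missed without Snf2h wildtype replicates 1, 2 or 3 (0.0694, 0.0611 and 0.0702) and Brg1 wildtype replicate 2 (0.112). For Aplnr, Cdh5 and Flt1 the other probe sets did not pass, so probe sets of 1 gene disagreed there.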

How the data were processed

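Total RNA of 14 eye samples in 4 groups was measured on single-colour Affymetrix arrays. The authors deposited linear intensity values, made with RMA according to the submitters' processing notes, whose version is not given in the sources used here. It is not stated if RMA was run on the Snf2h and Brg1 arrays jointly. Detection calls were not used, and array numbers limit the precision. The median intensity per array was 101 to 114. The log2 was taken here with no offset. Of 22690 probe sets, 64 controls, 691 with several genes and 1555 with no gene were left out, and 20380 remained. Symbols are those of the array annotation, and RefSeq changed 0. A gene in a list was represented by its probe set with the highest mean.

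Tests used limma 3.58.1 (lmFit, eBayes, two-sided) under R 4.3.3, each knockout against its own wildtype, with Benjamini-Hochberg adjustment over all 20380 probe sets and calls at an adjusted p under 0.05. The difference between knockouts was an interaction contrast over all 14 arrays. Changes are given ± limma's standard error. The members and lists were chosen with earlier results of these data known. Named were all members, list genes with the smallest p (at most 3 a list and comparison), and the 6 most alike genes. The wildtype comparison and the muscle list were added after seeing the data. The fits were tested on simulated data first. Of 100 probe sets given a change of 1 log2 unit, 56% were called in the Snf2h comparison, 16% in the Brg1 comparison and 14% for their difference. For changes of 2 log2 units these shares were 93%, 71% and 72%. Replicate numbers did not pair the arrays. Same-numbered arrays had correlations of deviations of -0.23 to 0.06 in the Snf2h and 0.07 to 0.13 in the Brg1 experiment. Alternatives were quantile normalization, a filter on dim probe sets (mean log2 under 6.84 or 6.88), an offset of 32, 1 probe set per gene, trended robust eBayes, array weights, a replicate block, 1 fit over all arrays, averaging near-identical arrays, Gapdh or Xist as covariates and leaving out each array.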

Additional observations from a re-analysis of the deposited data

Results flagged for a closer look

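The Aplnr probe set 1438651_a_at had 1 low array in the Snf2h wildtype group, where replicate 2 was at 9.38 and the other 3 arrays were between 10.15 and 10.31. The Cdh5 probe set 1433956_at had 1 high array in the Snf2h cKO group, where replicate 4 was at 4.61 and the other 3 were between 4.06 and 4.14. Both stood farther from the rest of their group than Dixon's test allows at 4 samples. Of 28 groups of 4 arrays tested over the 14 endothelial probe sets, 2 did so, and chance gives about 1 in 20.

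The neutrophil genes S100a8 and S100a9 changed differently in the knockouts. Their Brg1 change minus their Snf2h change was 5.03 and 4.44 on the log2 scale, and the limma interaction passed for both.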

How the results depend on the processing

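Counts of endothelial calls stayed at 0 under all 20 alternatives for the Snf2h knockout, all 17 for the Brg1 knockout and all 25 for their difference. The smallest adjusted p of a member was 0.110 in the Snf2h knockout (Plvap without Snf2h wildtype replicate 4) and 0.0801 in the Brg1 knockout (Esm1 without Brg1 cKO replicate 1). For the difference, adjusted p-values were kept for the Esm1 and Aplnr probe sets alone. The smallest of these was 0.0922 (Esm1 without Brg1 cKO replicate 1). The causes of the following shifts were not tested. In the Snf2h knockout the calls over all probe sets, 0 with limma (3610 at an unadjusted p under 0.05), became 5 with the dim filter, 3 with the offset, 2 with 1 probe set per gene, 7 with trended robust eBayes, 561 with array weights, 5 with 1 fit, 1 with Gapdh and 6 with Xist, and 0 to 184 with 1 array left out, the highest without wildtype replicate 1. The median of the member genes moved from -0.32 to -0.11 with the offset and -0.12 with Gapdh, and ran from -0.37 to -0.17 with 1 array left out. In the Brg1 knockout 127 calls became 25 with the dim filter, 16 with the offset, 50 with the replicate block, 280 with 1 fit and 249 with Gapdh, and 25 to 199 with 1 array left out, while the median of the member genes, 0.51, ran from 0.18 to 0.79. For the difference 140 became 7, 47, 81 with the replicate block, 82 with the near-identical arrays averaged and 63 with Gapdh, and 66 to 290 with 1 array left out, while the median of the member genes, 0.46, ran from 0.058 without Brg1 cKO replicate 2 to 0.82 without replicate 1. Between wildtype groups 7279 became 4537 with 1 probe set per gene and 3574 with Xist, and 4642 to 7185 with 1 array left out. Member calls there fell from 6 to 2 with the dim filter, which tests fewer members, and to 3 to 6 with 1 array left out, and the median of the member genes was 0.77 with Xist.

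Some members turned sign. In the Snf2h knockout Esm1 was at 0.019 with Gapdh, and Tie1 at -0.046 with Xist and at -0.04 to 0.31 with 1 array left out. In the Brg1 knockout Flt1 1451756_at was at -0.080 with array weights, -0.045 with Gapdh and -0.28 to 0.37 with 1 array left out. Flt1 1454037_a_at was at 0.0096 with Gapdh, 0.020 with Xist and -0.18 to 0.19 with 1 array left out, and Tek at 0.37 with Xist and -0.39 to 0.31. With 1 array left out Cdh5 1422047_at ran from -0.011 to 0.33, Kdr from -0.36 to 0.0012 and Flt1 1419300_at from -0.026 to 0.84. The replicate block changed no member call, and S100a8 lost its call under it (adjusted p = 0.0648). Among 33 other named results, 574 of 588 values kept direction and side of the threshold, 0 turned sign, 7 lost and 7 gained a call. Whether dim members such as Esm1 give compressed changes was not tested. The Brg1 change of Esm1 was 1.24 with no offset and 0.48 with the offset.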
